A study of Homo sapiens with 21 samples.

Results

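The 6 libraries described here map RNA-DNA hybrids in MDA-MB-436 cells after knockdown of RNF8. They were chosen as the immunoprecipitations with the S9.6 antibody that had no RNase treatment, 2 from cells with a control hairpin (shScr) and 4 from cells with a hairpin against RNF8 (shRNF8), of 21 samples in the series. Their peaks on chromosomes 1 to 22 and X were merged into 73564 regions. MDA-MB-436 is an established triple-negative breast cancer line with a mutated BRCA1 gene, so both groups lack normal BRCA1. Both were transduced with a lentivirus whose hairpin is switched on by doxycycline, and the labels call them WT and RNF8-KD. One RNF8 hairpin sequence and no rescue are labelled, so loss of RNF8 and other effects of the hairpin cannot be told apart. The time in doxycycline is not given in the sources used here. The labels do not say whether the replicates were separate cultures, so p-values measure the spread between these libraries, which may be technical.

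An R-loop forms when RNA pairs with its DNA template and leaves the other DNA strand unpaired. R-loops are known at the starts of active genes, where nascent RNA meets GC-rich DNA, and past the ends of genes, where transcription terminates. The S9.6 antibody binds RNA-DNA hybrids, and DRIP-seq sequences the DNA that it pulls down. RNF8 is a ubiquitin ligase that marks chromatin around DNA breaks. The series title ties it to XRN2, the exonuclease that degrades RNA behind the polymerase at termination, and to R-loop resolution in BRCA1 mutant cells.

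In the RNA libraries of the same hairpins, RNF8 mRNA was 28.9, 29.1 and 28.0 CPM (counts scaled by library size) in shScr and 9.33, 9.99 and 7.94 CPM in shRNF8, a fall in each shRNF8 library (log2 fold change -1.66, edgeR adjusted p = 0.000165). These are separate libraries, and no RNA library is tied by its labels to one DRIP library. Markers of the line were present (VIM 900 to 1130 CPM, CD44 562 to 598 CPM, FN1 40.1 to 84.9 CPM, SPARC 14.6 to 24.1 CPM). ESR1, PGR, CDH1, CD3E and PTPRC were at or near 0, EPCAM was at 0.516 to 0.868 CPM, and ERBB2, listed among low markers, was at 47.8 to 63.2 CPM. The immunoprecipitated libraries held 5.34 and 3.12 fragments per kb in shScr by an estimate from the deposited values. In shRNF8 they held 2.80 and 3.89 in replicates 1 and 2, and 5.25 and 5.50 in replicates 3 and 4. Replicates 1 and 2 were thus shallower than replicates 3 and 4. The control DNA behind the background was estimated at 6.97 fragments per kb for both shScr lists. The estimates were 12.99 and 12.96 for shRNF8 replicates 1 and 2, and 11.39 and 11.36 for replicates 3 and 4. They took local backgrounds as whole multiples of what 1 control fragment adds, which held for 46.5% to 55.5% of backgrounds per library. The estimated control depth thus differed along with the pairs, and its part in the results was not tested. The peak names inside the lists of replicates 3 and 4 carry the name stems of replicates 1 and 2, while the peaks themselves differ. Over the shared regions the libraries separated into shScr, shRNF8 replicates 1 and 2, and shRNF8 replicates 3 and 4 on the first pair of principal components (37.1% and 30.1% of the variance). For this reason each result is also given for both shRNF8 pairs apart. RNase-treated libraries held 254 to 1912 peaks, and these met 0.355% to 1.24% of the S9.6 peaks of the matching libraries.

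The sequences below are the 250 bases before the start of 6 genes whose S9.6 region changed, printed 5′ to 3′ in the direction of transcription (RefSeq, GRCh38.p14). They are shown because no genome of the files' build was at hand to read sequence at summits. Most regions called lower in shRNF8 over all 6 libraries also lay at gene starts, while none of the higher ones did. Each window lay wholly inside an S9.6 peak in all 6 libraries except that of TRIB3, with 228 of its bases in a peak in shRNF8 replicates 1 and 2. Capitals mark TGACGT or its reverse complement ACGTCA, the core of the site bound by factors of the ATF and CREB family. This motif was picked after the sequences had been seen. The windows are FOS at chr14:75278578-75278827 (plus strand), DUSP1 at chr5:172771196-172771445 (minus), CYCS at chr7:25125261-25125510 (minus), TRIB3 at chr20:381045-381294 (plus), KMT2E at chr7:105013955-105014204 (plus) and CDKN1B at chr12:12717118-12717367 (plus). S9.6 enrichment at the first 5 was lower in shRNF8, and at CDKN1B it was higher in replicates 3 and 4.
FOS: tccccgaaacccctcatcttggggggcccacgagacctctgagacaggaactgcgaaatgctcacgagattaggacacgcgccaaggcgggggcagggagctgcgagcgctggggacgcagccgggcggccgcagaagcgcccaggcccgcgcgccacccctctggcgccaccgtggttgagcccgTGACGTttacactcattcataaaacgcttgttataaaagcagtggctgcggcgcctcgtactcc
DUSP1: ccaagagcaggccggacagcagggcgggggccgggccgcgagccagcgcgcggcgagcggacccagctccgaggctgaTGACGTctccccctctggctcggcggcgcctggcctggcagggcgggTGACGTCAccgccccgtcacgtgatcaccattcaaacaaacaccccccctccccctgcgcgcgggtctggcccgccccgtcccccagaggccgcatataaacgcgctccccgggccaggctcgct
CYCS: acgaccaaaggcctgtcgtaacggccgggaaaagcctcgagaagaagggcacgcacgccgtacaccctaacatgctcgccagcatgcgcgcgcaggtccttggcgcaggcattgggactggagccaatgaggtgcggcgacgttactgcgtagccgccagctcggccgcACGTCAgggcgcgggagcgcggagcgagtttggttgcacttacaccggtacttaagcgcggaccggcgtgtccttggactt
TRIB3: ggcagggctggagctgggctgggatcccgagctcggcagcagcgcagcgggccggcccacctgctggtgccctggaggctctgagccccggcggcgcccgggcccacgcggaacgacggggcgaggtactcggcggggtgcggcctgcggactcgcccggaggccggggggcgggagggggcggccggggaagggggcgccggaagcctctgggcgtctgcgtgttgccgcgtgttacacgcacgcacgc
KMT2E: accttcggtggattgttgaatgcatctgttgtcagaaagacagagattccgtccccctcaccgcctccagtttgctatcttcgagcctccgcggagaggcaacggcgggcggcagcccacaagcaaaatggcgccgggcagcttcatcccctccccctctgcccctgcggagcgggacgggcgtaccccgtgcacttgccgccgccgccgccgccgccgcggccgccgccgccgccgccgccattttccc
CDKN1B: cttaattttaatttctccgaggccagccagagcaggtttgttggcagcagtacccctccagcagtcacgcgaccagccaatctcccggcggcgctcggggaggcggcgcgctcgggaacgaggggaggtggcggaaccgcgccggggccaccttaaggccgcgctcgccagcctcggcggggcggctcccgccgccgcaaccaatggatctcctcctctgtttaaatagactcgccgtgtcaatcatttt
FOS and CYCS held 1 match each and DUSP1 held 3, of which 2 overlap as the palindrome TGACGTCA. TRIB3, KMT2E and CDKN1B held none. Base composition also differed among these windows: TRIB3 had 78.8% G and C with 6 runs of at least 4 G, while KMT2E had 68.8% with 5 runs of at least 4 C and no such run of G.

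The first comparison asked at which places hybrid enrichment differed between shRNF8 and shScr. Enrichment was taken as the highest fold of a library's peaks in a region, which is the authors' ratio of S9.6 signal to local background. The 8016 regions called in all 6 libraries (10.9% of all) were compared on the log2 scale after centring each library on its median, since the medians before centring ran from 2.74 to 2.97. With all 4 shRNF8 libraries against both shScr libraries, 17 regions were lower (0.212% of those tested) and 6 were higher (0.0749%) at a limma adjusted p under 0.05. The groups did not overlap in any of these 23 regions, nor in 26.8% of all regions tested. Of the 17 lower regions, 11 lay at gene starts, 3 at gene ends, 2 in exons and 1 in an intron. None of the 6 higher regions lay at a gene start.

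The lower regions included 4 of the immediate-early genes listed further on. FOS encodes a subunit of the AP-1 transcription factor, and its region (chr14:75276647-75283354) reached folds of 38.8 and 37.6 in shScr, 13.9 and 16.8 in shRNF8 replicates 1 and 2, and 8.90 and 6.05 in replicates 3 and 4. All 4 shRNF8 libraries lay below both shScr libraries (3.57-fold lower, log2 difference -1.83, SE 0.36, limma adjusted p = 0.0384). DUSP1 encodes a phosphatase that switches off MAP kinases, and its region (chr5:172769577-172777594) had folds of 21.1 and 23.9 in shScr, 11.2 and 8.75 in shRNF8 replicates 1 and 2, and 5.39 and 3.94 in replicates 3 and 4. The order of the pairs was the same as at FOS (log2 difference -1.72, SE 0.35, limma adjusted p = 0.0435). At ATF3, a stress-induced transcription factor, an intronic region (chr1:212606669-212611124) fell from folds of 17.96 and 21.5 to between 5.58 and 8.70 (log2 difference -1.59, SE 0.29, limma adjusted p = 0.0305). JUND, another AP-1 subunit, had folds of 60.02 and 73.8 in shScr and of 23.9 to 30.6 in shRNF8 over a region at its end (log2 difference -1.35, limma adjusted p = 0.0497), close to the threshold.

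The lower regions also included those at the starts of TRIB3, XBP1 and KMT2E. TRIB3, a pseudokinase induced by endoplasmic reticulum stress, had folds of 24.4 and 19.1 in shScr, 6.74 and 7.14 in shRNF8 replicates 1 and 2, and 5.39 and 5.76 in replicates 3 and 4 (chr20:380690-385225). Both pairs were low to a like degree (3.44-fold lower, log2 difference -1.78, SE 0.27, limma adjusted p = 0.0145). XBP1 encodes a transcription factor of the unfolded protein response, and its region (chr22:28799395-28801071) had folds of 27.5 and 27.2 in shScr against 7.18 to 10.5 in shRNF8 (log2 difference -1.60, SE 0.26, limma adjusted p = 0.0145). The region at the start of KMT2E, a chromatin protein with a SET domain (chr7:105010618-105015236), stood at 35.5 and 35.8 in shScr and at 8.97, 6.40, 12.02 and 9.35 in shRNF8 replicates 1 to 4 (3.94-fold lower, log2 difference -1.98, SE 0.27, limma adjusted p = 0.0117). Peaks covered 4619 bp of it in both shScr libraries and in replicates 3 and 4, and 2823 and 3017 bp in replicates 1 and 2, so in replicates 3 and 4 the height of the enrichment was lower over the same length.

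The lowest log2 difference was at the start of SNORA76C, a small nucleolar RNA gene (chr17:64145222-64147372), with folds of 27.5 and 23.4 in shScr, 8.66 and 8.001 in shRNF8 replicates 1 and 2, and 3.02 and 4.09 in replicates 3 and 4 (log2 difference -2.21, limma adjusted p = 0.0194). Other starts that fell were those of H1F0, a linker histone (log2 difference -1.65), EXT1, an enzyme of heparan sulfate synthesis (-1.59), CYCS, which encodes cytochrome c (-1.50), CYR61, a secreted matrix protein (-1.40), and IFT20, a ciliary transport protein (-1.38). Exonic regions in FAM53C (log2 difference -1.65) and in TXNRD1, a thioredoxin reductase (-1.52), and regions at the ends of IL32, a cytokine (-1.53), and GP1BB, a platelet glycoprotein (-1.27), made up the rest.

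The 6 higher regions lay in introns (3), exons (2) and intergenic sequence (1). An intergenic region on chromosome 19 (chr19:1164902-1165679) had folds of 5.03 and 5.56 in shScr and of 14.3, 13.7, 18.2 and 18.96 in shRNF8 replicates 1 to 4 (3.08-fold higher, log2 difference 1.62, SE 0.26, limma adjusted p = 0.0145). In BCL2L2, an anti-apoptotic relative of BCL2, an exonic region (chr14:23306873-23311138) had folds of 2.95 and 3.395 in shScr and of 7.44 to 10.3 in shRNF8, and the length inside peaks went from 309 and 433 bp to between 1410 and 3806 bp. LMNB1, a nuclear lamin, held a higher exonic region (log2 difference 1.39, limma adjusted p = 0.0384). Higher intronic regions lay in TRAF2, an adaptor of TNF receptor signalling (1.33), in C9orf69 (1.48) and in CCDC137 (1.41). The next regions by p, in BCAT2, ZFPM1, LOC101059948 and CBY3, had log2 differences of 1.1 to 1.53 and did not pass (limma adjusted p = 0.0585 each).

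**Figure D1:**
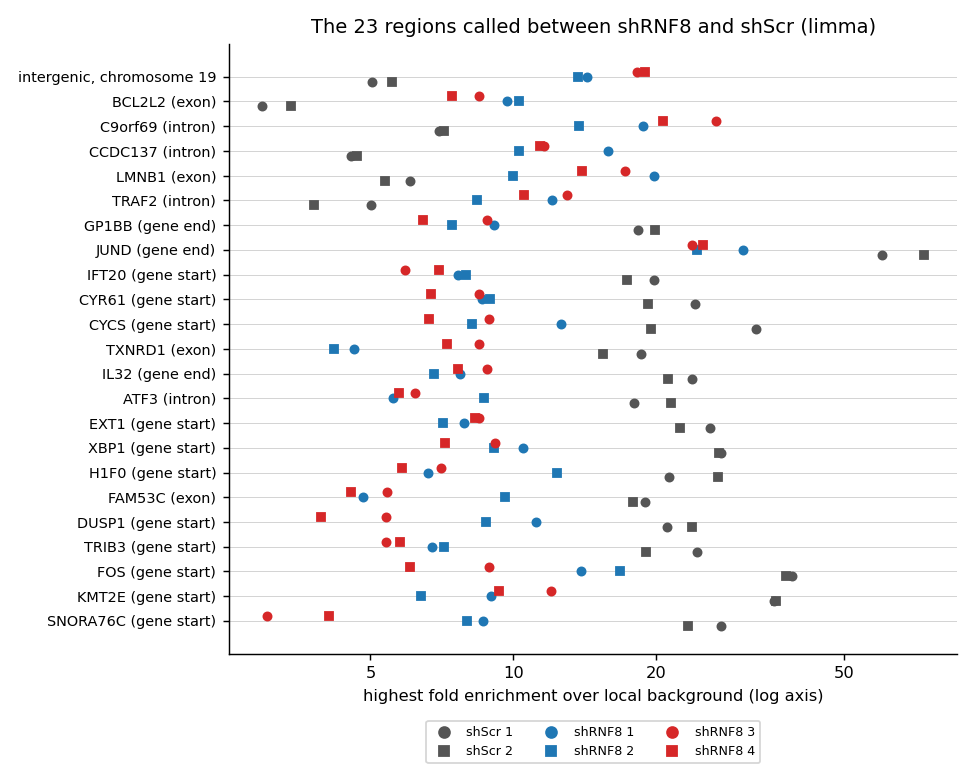
The highest fold enrichment over local background (log axis) is plotted for each of the 23 regions that passed limma between shRNF8 and shScr, with 1 point per library and the gene and place of each region on the vertical axis. Grey points are shScr, blue points shRNF8 replicates 1 and 2, and red points replicates 3 and 4; the grey points lie apart from all others in every row, to the right in the 17 lower regions and to the left in the 6 higher ones.

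These calls rested on both shScr libraries. Without shScr replicate 1, and also without replicate 2, limma called 0 regions, with 628 and 780 regions at an unadjusted p under 0.05. Without shRNF8 replicates 1, 2, 3 and 4 in turn it called 47, 51, 11 and 10. With the mean fold of a library's peaks in a region in place of the highest, it called 15 regions. Of these, 0 were higher and 15 lower, and 9 were among the 23, so none of the 6 higher regions passed in that setting. When height was taken as the pileup at the summit over the genome background of the library instead of over the local background, the all-library comparison called 0 regions (1275 at an unadjusted p under 0.05), while the log2 differences kept their sign at all 23 regions, with FOS at -2.17 (adjusted p = 0.131) and the intergenic region on chromosome 19 at 0.39 (adjusted p = 0.408).

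Each shRNF8 pair was then set against the same shScr libraries in 1 limma fit. Replicates 1 and 2 had 261 regions higher (3.26%) and 182 lower (2.27%), and replicates 3 and 4 had 389 higher (4.85%) and 420 lower (5.24%). Set against each other, replicates 3 and 4 were higher than 1 and 2 in 186 regions (2.32%) and lower in 314 (3.92%), so the shRNF8 pairs differed from each other in more regions (500) than replicates 1 and 2 differed from shScr (443). Leaving out 1 library gave 8 calls for replicates 1 and 2 without shRNF8 replicate 1, 60 and 148 without shScr replicates 1 and 2, and 214 and 217 without shRNF8 replicates 3 and 4. For replicates 3 and 4 it gave 238 and 304 calls without shScr replicates 1 and 2, and 121 and 125 without shRNF8 replicates 3 and 4. Between the pairs it gave 143, 60 and 103 calls without shRNF8 replicates 1, 3 and 4.

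In replicates 3 and 4 the largest increase was in an intron of LAMA5, a laminin chain of the basement membrane (chr20:62318331-62321309). Its folds were 4.82 and 6.22 in shScr, 11.1 and 9.68 in shRNF8 replicates 1 and 2, and 36.3 and 24.6 in replicates 3 and 4 (log2 difference 2.45 for replicates 3 and 4, limma adjusted p = 9.84e-07, and 0.95 for replicates 1 and 2, adjusted p = 0.035). A second intronic region of LAMA5 was at 20.6 and 18.5 in replicates 3 and 4 and at 4.64 to 6.51 in the other 4 libraries. The start of CDKN1B, an inhibitor of cyclin-dependent kinases (chr12:12711792-12720409), had folds of 6.62 and 6.35 in shScr, 9.49 and 6.26 in shRNF8 replicates 1 and 2, and 22.8 and 25.8 in replicates 3 and 4 (log2 difference 1.91, limma adjusted p = 3.8e-05). Increases of similar size stood in ZFPM1, a cofactor of GATA factors (1.94), and at the start of CREBZF, a leucine zipper protein (1.93).

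Among decreases in replicates 3 and 4, the start of YBX3, a cold shock domain protein that binds RNA (chr12:10721389-10724040), went from folds of 24.5 and 18.98 in shScr to 4.70 and 2.99 (log2 difference -2.52, limma adjusted p = 7.85e-07). Replicates 1 and 2 stood between, at 13.3 and 13.9 (-0.63, adjusted p = 0.165). FOS (-2.38) and DUSP1 (-2.28) were among the 5 largest decreases of this pair. In replicates 1 and 2 they were smaller (-1.29 and -1.15), and the difference between the pairs passed at both genes (limma adjusted p = 0.0171 and 0.00808). An intergenic region on chromosome 16 (chr16:34588005-34588397) had folds of 39.1 and 18.5 in shScr, 20.6 and 30.8 in shRNF8 replicates 1 and 2, and 5.12 and 4.96 in replicates 3 and 4 (log2 difference -2.42). By pileup over genome background the same region was at -0.16 (limma adjusted p = 0.87), so this call turned on the local background.

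Replicates 1 and 2 had their largest decreases at KMT2E (log2 difference -2.21), TXNRD1 (-1.92), SOD2, the mitochondrial superoxide dismutase (-1.83), EXT1 (-1.66) and TRIB3 (-1.61). Their largest increases were in an intergenic region on chromosome 17 (chr17:1742007-1751364), with folds of 10.3 and 7.25 in shScr and 39.6 and 21.0 in the pair (1.77), at the end of VPS53, a subunit of a vesicle tethering complex (1.74), and at BCL2L2 (1.69). VPS53 showed how far the pairs could part: its folds were 7.28 and 8.11 in shScr, 32.4 and 19.5 in replicates 1 and 2, and 5.58 and 6.10 in replicates 3 and 4 (log2 difference between the pairs -2.13, limma adjusted p = 1.85e-05). CALM2, which encodes calmodulin, differed in the other direction, with folds of 3.30 and 4.24 in replicates 1 and 2 and 17.6 and 14.6 in replicates 3 and 4 over a region at its end (2.07, limma adjusted p = 4.34e-05).

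By place in the genome, gene starts took part unequally. In replicates 3 and 4, 180 of the 1803 tested regions at gene starts were lower (9.98%) and 83 higher (4.60%), while of 2805 intronic regions 74 were lower (2.64%) and 160 higher (5.70%). The median log2 difference was -0.11 at gene starts and 0.10 in introns, beside 0.02 over all regions. In replicates 1 and 2, regions at gene starts were lower in 78 cases (4.33%) and higher in 76 (4.22%), and intronic regions lower in 36 (1.28%) and higher in 78 (2.78%). Of 1674 regions at gene ends, 59 were higher (3.52%) and 31 lower (1.85%) in replicates 1 and 2. In replicates 3 and 4, 77 were higher (4.60%) and 66 lower (3.94%). These were near the shares over all regions, 3.26% higher and 2.27% lower in replicates 1 and 2. In replicates 3 and 4 the shares over all regions were 4.85% and 5.24%. Whether classes differed was not tested.

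**Figure D2:**
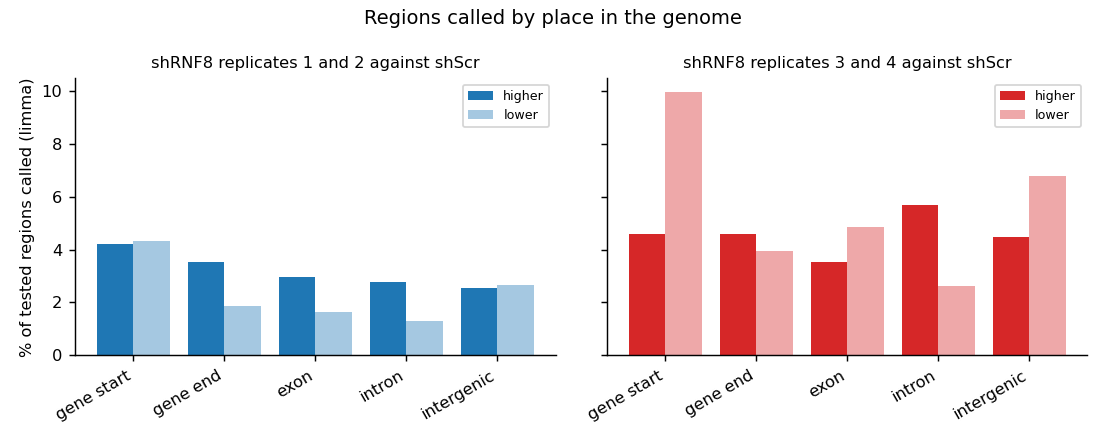
The vertical axis gives the percentage of tested regions of each class that limma called higher (dark bars) or lower (pale bars) than shScr, for shRNF8 replicates 1 and 2 on the left and replicates 3 and 4 on the right. The tallest bar is that of regions at gene starts called lower in replicates 3 and 4, at 9.98%, and in introns the dark bar is the taller in both pairs.

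The TGACGT motif was also counted, on both strands, in the 250 bases before the starts of all genes in the RefSeq table. It occurred in 2026 of 27305 promoters (7.42%) and in 154 of the 1285 matched promoters of genes with a tested region at the start (12%). Among genes whose start was lower it occurred in 10 of 57 for replicates 1 and 2 (17.5%) and in 28 of 135 for replicates 3 and 4 (20.7%), while among genes whose start was higher it occurred in 2 of 53 (3.77%) and 2 of 56 (3.57%). In the all-library comparison 4 of 7 promoters of lower regions held it, those of FOS, DUSP1, CYCS and IFT20. The motif was picked after the promoters of FOS, DUSP1 and CYCS had been seen, so their count among the 7 carries no weight. FOS and DUSP1 are also among the lower starts of both pairs. Both pairs share the shScr libraries, and these shares are a description with no test. A match says only that the letters are present.

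The immediate-early genes, which cells switch on within minutes of a stimulus, were described as a list of 23, of which 22 have 1 locus and 16 had a tested region. In the all-library comparison 0 of their 21 regions were higher and 4 were lower (FOS, DUSP1, ATF3 and JUND), with a median log2 difference of -0.35 beside 0.03 over all regions, of which 6 of 8016 were higher and 17 lower. In replicates 1 and 2, 1 was higher and 4 lower (median -0.22), and in replicates 3 and 4, 1 was higher and 5 lower (median -0.48). Over all 8016 regions, 261 were higher and 182 lower in replicates 1 and 2, and 389 higher and 420 lower in replicates 3 and 4. Their starts lay in a peak at 19 and 18 genes in shScr, and at 15, 17, 15 and 14 genes in shRNF8 replicates 1 to 4, or 63.6% to 86.4% of members, beside 24.1% to 31.9% of all genes. JUN, the main partner of FOS, had folds of 54.9 and 54.6 in shScr, 25.1 and 28.8 in replicates 1 and 2, and 14.4 and 23.1 in replicates 3 and 4. It did not pass in the all-library fit (log2 difference -1.29, limma adjusted p = 0.0857) and passed in replicates 3 and 4 (-1.58, adjusted p = 0.00175). EGR1, a zinc finger transcription factor, had folds of 45.4 and 39.8 in shScr and of 15.7 to 28.1 in shRNF8 (log2 difference -0.97, adjusted p = 0.144). FOSB, a further AP-1 subunit, was not among the tested regions, because it had no peak in replicates 3 and 4; its folds were 18.5 and 18.8 in shScr and 6.16 and 5.47 in replicates 1 and 2. KLF2 and KLF4, Krüppel-like factors, likewise had peaks in both shScr libraries and in replicates 1 and 2 and none in replicates 3 and 4.

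Not all members fell. JUNB, also an AP-1 subunit, had folds of 19.7 and 18.9 in shScr and of 23.7 to 28.0 in shRNF8 (log2 difference 0.43, limma adjusted p = 0.432). A region at FOSL1, a FOS relative, was higher in replicates 1 and 2 (1.06, adjusted p = 0.0433), and the start of KLF10 was higher in replicates 3 and 4 (1.08, adjusted p = 0.0182). The mRNA of 21 members was tested and 0 were called by edgeR, with a median log2 difference of -0.40 beside -0.0048 over all genes. FOS mRNA was 73.7, 5.2 and 3.44 CPM in shScr replicates 1 to 3 and 7.84, 8.35 and 8.05 CPM in shRNF8, so 1 shScr library stood far above all others. DUSP1 mRNA showed the same, with 527 CPM in shScr replicate 1, 117 and 110 CPM in replicates 2 and 3, and 138 to 168 CPM in shRNF8. JUND mRNA was 124, 195 and 223 CPM in shScr and 94.8 to 113 CPM in shRNF8 (edgeR log2 fold change -0.77, adjusted p = 0.0652).

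Per library, the shRNF8 pairs lay on opposite sides of the shScr mean in peak number and in coverage. Peaks numbered 49277 and 38659 in shScr, 32358 and 34103 in shRNF8 replicates 1 and 2, and 50963 and 48546 in replicates 3 and 4. They covered 47.6 and 43.4 Mb in shScr, 39.5 and 34.4 Mb in replicates 1 and 2, and 83.5 and 79.0 Mb in replicates 3 and 4. Replicates 3 and 4 thus covered 1.79 times the mean of shScr, and replicates 1 and 2 covered 0.813 times that mean. Over all 4 shRNF8 libraries the mean was 59.1 ± 25.7 Mb (SD, n = 4) against 45.5 ± 3.0 Mb (SD, n = 2), a difference that did not pass a two-sided exact permutation test (p = 0.533). With 15 splits that test cannot go below 0.0667, and a comparison of 2 libraries with 2 cannot go below 0.333.

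Replicates 3 and 4 held more length in wide peaks and, to a smaller extent, in narrower ones. Peaks over 5 kb numbered 1125 and 1160 in shScr, 1265 and 843 in replicates 1 and 2, and 3276 and 3053 in replicates 3 and 4, where they held 37.7 and 35.4 Mb against 6.94 to 10.7 Mb in the other 4 libraries. Peaks up to 5 kb held 38.3 and 33.5 Mb in shScr, 28.8 and 27.5 Mb in replicates 1 and 2, and 45.8 and 43.6 Mb in replicates 3 and 4. Of the 35.8 Mb by which replicates 3 and 4 exceeded shScr on average, 27.0 Mb thus lay in peaks over 5 kb and 8.77 Mb in narrower ones. Median fold was 5.03 and 5.31 in shScr, 5.56 and 5.13 in replicates 1 and 2, and 4.66 and 4.44 in replicates 3 and 4, so the pair with the widest peaks had the lowest typical fold. Scaled to the depth of the shallowest library, coverage was 44.5 and 42.9 Mb in shScr and 39.5 and 33.7 Mb in replicates 1 and 2. It was 75.5 and 68.1 Mb in replicates 3 and 4, so the order was kept. This depth matching dropped peaks and left the width of those kept as deposited. Whether peak width depends on depth was thus not tested. Depth matching brought peak numbers to 41471 and 37409, 32337 and 32107, and 35038 and 28512, so both shRNF8 pairs then lay below shScr in peak number.

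Summits at gene starts made up 13.0% and 12.9% of peaks in shScr, 15.7% and 14.5% in replicates 1 and 2, and 10.7% and 10.1% in replicates 3 and 4. Introns held 43.9% and 44.1% in shScr, 44.4% and 42.7% in replicates 1 and 2, and 51.9% and 52.7% in replicates 3 and 4. At gene ends the shares were 18.7% and 20.1%, 18.5% and 19.2%, and 15.5% and 15.9%. Averaged over all shRNF8 libraries the differences of these shares from shScr did not pass the exact permutation test (p = 1 for starts, 0.333 for introns and 0.2 for ends).

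**Figure D3:**
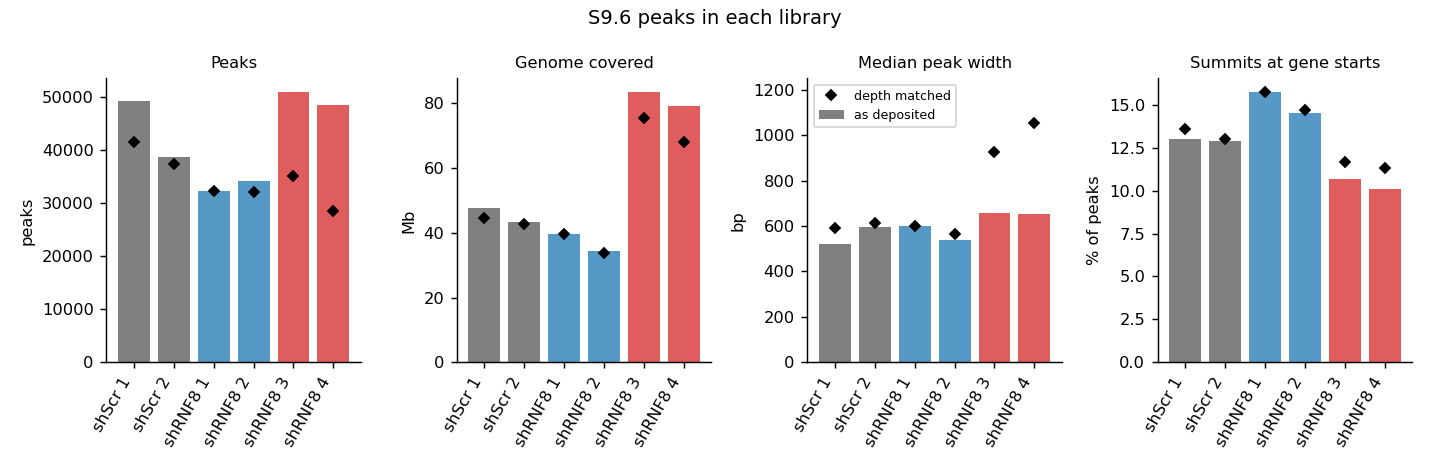
Bars give the number of peaks, the genome covered in Mb, the median peak width in bp and the percentage of summits at gene starts in each of the 6 libraries, and black diamonds give the same after depth matching. Coverage of shRNF8 replicates 3 and 4 stands above that of the other 4 libraries as deposited and after depth matching, while their peak numbers overlap those of shScr as deposited and lie below them after matching. Matching dropped peaks and left the width of those kept as deposited.

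Which regions were called differed in the same way. Regions called in both shRNF8 replicates 3 and 4 and in no other library numbered 7550. Of these, 59.0% lay in introns and 5.27% at gene starts, against 35.0% and 22.5% of the regions shared by all 6 libraries. Their median length was 857.5 bp and their median fold 4.48, against 4770 bp and 7.41 for the shared regions. They were closer to the whole set of 73564 regions, of which 51.8% lay in introns and 10.5% at gene starts. The median length of the whole set was 587 bp and its median fold 4.56. Regions called in both replicates 1 and 2 and nowhere else numbered 371. There were 1835 in both shScr libraries alone, and 537 in all 4 shRNF8 libraries and neither shScr library. Libraries of a pair shared 43.9% to 49.2% of their joint regions, and libraries of different pairs 28.5% to 38.4%. Within the 8016 shared regions the median length inside peaks was 2338.5 and 2153 bp in shScr, 2217.5 and 1696.5 bp in replicates 1 and 2, and 4046.5 and 3906 bp in replicates 3 and 4. In 73.5% of them both replicates 3 and 4 were wider than both shScr libraries. A region there held 1.69 and 1.79 peaks on average in replicates 3 and 4 and 2.51 to 3.09 in the others, so fewer and wider peaks filled a region.

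Along genes the signal followed the places known for R-loops in all 6 libraries. Over 6629 genes of 20 to 200 kb with a mean of at least 1 CPM, the 2 kb before the start were covered to 10.4% and 8.95% in shScr, 10.7% and 7.07% in shRNF8 replicates 1 and 2, and 16.9% and 15.7% in replicates 3 and 4. The fifth of 10 equal parts of the gene was covered to 4.64% and 4.16%, 3.84% and 3.36%, and 10.0% and 9.46%. The first 2 kb past the end were covered to 14.5% and 14.1%, 11.8% and 10.2%, and 20.9% and 20%. Relative to the 2 kb before the start, the gene interior reached 0.448 and 0.465 in shScr, 0.359 and 0.476 in replicates 1 and 2, and 0.592 and 0.602 in replicates 3 and 4. The interior was thus raised by a larger factor than the 2 kb before the start in replicates 3 and 4, though not by more percentage points. Coverage at 8 to 10 kb past the end was 0.652 and 0.643 of that in the first 2 kb in shScr, 0.610 and 0.669 in replicates 1 and 2, and 0.715 and 0.711 in replicates 3 and 4. Coverage followed expression, from 0.374% and 0.314% of gene length in genes at 0 CPM to 8.38% and 7.84% in genes above 50 CPM in shScr, and from 0.642% and 0.60% to 14.9% and 14.2% in replicates 3 and 4.

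**Figure D4:**
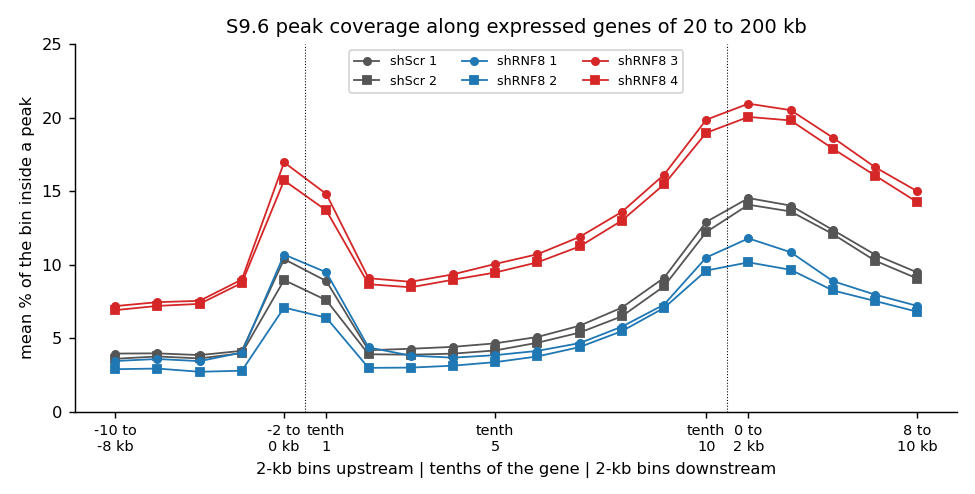
The vertical axis is the mean percentage of each bin inside S9.6 peaks over 6629 expressed genes of 20 to 200 kb, and the horizontal axis runs through 2-kb bins before the gene, 10 equal parts of the gene and 2-kb bins past its end, with 1 line per library. All 6 lines rise at the start and again through the later parts of the gene. They are highest in the first 2 kb past the end and fall after it. The red lines of shRNF8 replicates 3 and 4 lie above the others throughout, at 10.0% and 9.46% in the fifth of the gene's parts.

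Single genes showed how far peaks spread. The examples were chosen after the values were seen, from the protein-coding genes with the largest gain or loss of covered length in replicates 3 and 4 against all 4 other libraries, so they carry no test. VAV2, a signalling protein gene that spans 230431 bp, was covered to 8.83% and 8.5% in shScr, 10.3% and 8.29% in replicates 1 and 2, and 66.5% and 59.0% in replicates 3 and 4. In COL5A1, a collagen gene, coverage was 25.7% and 24.4%, 15.6% and 15.5%, and 79.7% and 70.8%. It lies near VAV2 (chr9:134641805-134844842 and chr9:133761894-133992324), so these too may not be independent. In GTF2IRD1, a relative of a general transcription factor, it was 13.6% and 11.5%, 8.14% and 6.87%, and 68.8% and 65.2%. MAD1L1, a spindle checkpoint gene, ZMIZ1, SEPT9, a septin, and RAI1 gained in the same way, with RAI1 covered to 95.0% and 91.8% in replicates 3 and 4. Both replicates 3 and 4 covered more than each other library in 5269 of 17060 protein-coding genes (30.9%).

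The loss of signal in replicates 3 and 4 was rarer, in 264 genes (1.55%), and could be near complete. KNDC1 was covered to 51.3% and 45.1% in shScr, 32.8% and 42.6% in replicates 1 and 2, and 1.61% and 0% in replicates 3 and 4. CFAP46, a ciliary gene on the same chromosome, held 13180 and 9964 bp of peaks in shScr, 13297 and 13688 bp in replicates 1 and 2, and 0 bp in both replicates 3 and 4. CFAP46 (chr10:132808392-132942585) and KNDC1 (chr10:133160467-133226412) lie close together, so they may not be independent examples. Their mRNA did not pass the test in the RNA libraries (edgeR adjusted p = 0.707 and 0.714). ITPRIP, BCAR3, IGFN1, EPHB2, a receptor tyrosine kinase, CACNG8, a calcium channel subunit, and ERICH1 were the other examples. Against shScr, replicates 1 and 2 covered more of 1063 genes (6.23%) and less of 3352 (19.6%), the reverse of replicates 3 and 4. No library had a peak in 6446 genes (37.8%).

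**Figure D5:**
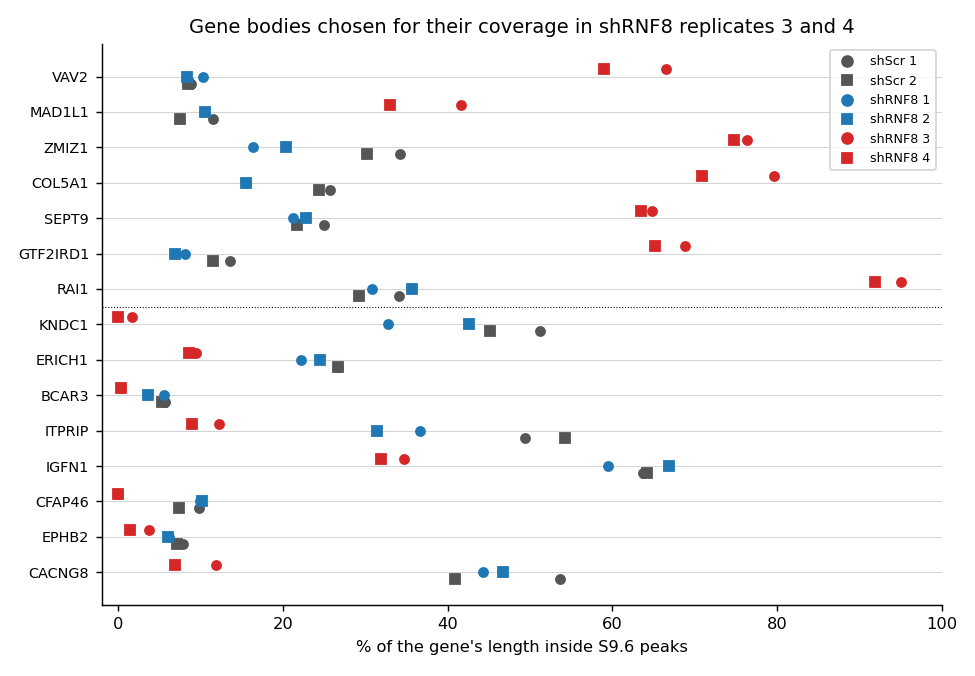
The horizontal axis is the percentage of each gene's length inside S9.6 peaks, with 1 point per library, for 7 genes that gained (above the dotted line) and 8 that lost (below) in shRNF8 replicates 3 and 4. The red points of replicates 3 and 4 stand apart because the genes were chosen for it; the grey and blue points of the other 4 libraries lie between 8.29% and 10.3% for VAV2.

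RNF8, XRN2 and BRCA1 themselves held almost no signal over their length. In BRCA1 the peaks covered 0 bp in 4 libraries and 294 and 272 bp in shRNF8 replicates 1 and 3. XRN2 had 1214 and 764 bp in the same libraries and 0 bp in the others. RNF8 had 638 bp in shScr replicate 2 and 803 and 623 bp in shRNF8 replicates 3 and 4, under 2% of its length. Gene starts and ends were counted apart. The end of BRCA1 lay in a peak in shScr replicate 1 and shRNF8 replicates 1 and 4, and its start in shRNF8 replicates 1 and 3. The end of XRN2 lay in a peak in shScr replicate 2, and the start of RNF8 in shRNF8 replicate 3. XRN2 mRNA was 144 ± 22.1 CPM in shScr and 160 ± 7.45 CPM in shRNF8 (SD, n = 3 each, edgeR adjusted p = 0.468).

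Of the reference loci of DRIP assays with known high signal, 8 were called at start and end in all 6 libraries, and ING3, a chromatin reader, had a peak at its start in shRNF8 replicate 2 and in no other library. NEAT1, a nuclear long noncoding RNA (chr11:65412685-65450607), had the highest mean fold of all shared regions, with 49.5 and 43.1 in shScr, 60.5 and 41.1 in replicates 1 and 2, and 94.9 and 72.5 in replicates 3 and 4 (log2 difference 0.49, limma adjusted p = 0.46). RPL13A, a ribosomal protein gene, had folds of 24.1 and 16.5 in shScr and of 16.9 to 53.6 in shRNF8. ACTB, which encodes beta-actin, had 21.1 and 18.2, 28.2 and 20.3, and 33.0 and 31.6. Of the 12 tested regions of reference genes with known high signal, 0 passed in the all-library comparison, where 23 of all 8016 regions passed. In replicates 3 and 4, 1 passed, beside 809 of 8016 regions, the end of BTBD19 (-0.98, limma adjusted p = 0.0185). The start of ZNF554, used as a low-signal locus, was called in all 6 libraries at folds of 4.87 to 10.9 and was higher in replicates 3 and 4 (log2 difference 1.04, adjusted p = 0.0169), while the start of SNRPN, a further low-signal locus, had no peak in any. The end of SNRPN had a peak in replicates 3 and 4 (folds of 5.63 and 2.82) and in no other library.

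Genes with studied terminator R-loops had 8 tested regions, with 0 called in the all-library comparison and 0 in replicates 1 and 2, beside 23 and 443 of all 8016 regions. In replicates 3 and 4, 2 of the 8 were called, beside 809 of 8016. The region at the end of ENSA was higher (folds of 7.31 and 5.16 in shScr and 10.9 and 11.8 in the pair, log2 difference 0.89, limma adjusted p = 0.0436). GAPDH, the glycolytic enzyme whose region spans the whole gene, was lower, with 43.8 and 39.2 in shScr, 36.2 and 21.8 in replicates 1 and 2, and 24.4 and 20.2 in replicates 3 and 4 (-0.90, adjusted p = 0.0456). Genes of the termination machinery had 23 regions, with 0 called over all libraries and 1 higher and 1 lower in each pair, beside 443 and 809 called of 8016 regions. In replicates 1 and 2 the start of PCF11, a subunit of the cleavage machinery, rose (1.29, adjusted p = 0.0126), and in replicates 3 and 4 an intronic region of CPSF4, a polyadenylation factor, rose (1.16, adjusted p = 0.00992). The lower regions were one at the end of SCAF4, shared with SOD1, in replicates 1 and 2 (-1.06, adjusted p = 0.0215) and the start of SCAF8 in replicates 3 and 4 (-0.87, adjusted p = 0.0447), both genes of proteins that bind the polymerase tail.

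Among other groups, none had a called region in the all-library comparison, where 23 of all 8016 regions were called. The counts for replicates 3 and 4 below stand beside 389 higher and 420 lower of 8016 regions (4.85% and 5.24%), and in lists of so few regions a count of 1 or 2 is near that background. Ribosomal protein genes, which are short and highly transcribed, had 75 tested regions. Of these, 1 was higher and 5 lower in replicates 1 and 2 (6 of 75, beside 443 of 8016 regions), and 0 were higher and 8 lower in replicates 3 and 4. RPL5 had folds of 16.7 and 15.4 in shScr, 20.5 and 13.0 in replicates 1 and 2, and 5.01 and 5.62 in replicates 3 and 4 (log2 difference -1.59, limma adjusted p = 0.000299), and RPL12 was lower in both pairs (-1.26 and -0.91). Genes of R-loop metabolism had 24 regions, of which replicates 3 and 4 had 1 higher, in the helicase RTEL1 (1.10, adjusted p = 0.0126), and 2 lower, in the helicase DDX21 (-1.20) and the FACT subunit SUPT16H (-1.12). Of 3 regions of homologous recombination genes, 1 was higher in replicates 3 and 4, in XRCC3 (1.20, adjusted p = 0.00946). Of 18 regions of RNF8 signalling genes, 17 snoRNA host regions and 1 fragile-site region, 1 each was lower in that pair (UBE2V2, SNHG15 and LPP), and of 3 histone regions 1 was higher (HIST1H1E, 1.24). Long genes of common fragile sites were nearly bare of signal, with 1 or 2 of 18 starts and 0 ends in a peak in each library, beside 24.1% to 31.9% of all gene starts and 23.7% to 31.8% of all gene ends.

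Changes in S9.6 enrichment at gene starts were set beside mRNA in the RNA libraries. Of all genes tested by edgeR, 136 of 14018 were higher in shRNF8 (0.970%) and 220 lower (1.57%). Of the 3657 tested genes with a region shared by all 6 libraries at their start, 15 were higher and 82 lower, 2.65% in all beside 2.54% of all genes. Among 10 tested genes whose start was lower in the all-library comparison, 0 passed, and 9 had a log2 difference below 0, beside 56.8% of the genes with a shared region. At FOS and DUSP1 that sign rested on shScr replicate 1, because the other shScr libraries lay below all shRNF8 libraries. EXT1 (-0.041) and IFT20 (-0.082) were near 0. TRIB3 mRNA was 93.4, 144 and 147 CPM in shScr and 83.7, 87.5 and 73.6 CPM in shRNF8 (edgeR log2 fold change -0.65, adjusted p = 0.0608). Of 165 genes whose start was lower in replicates 3 and 4, 1 was higher and 4 were lower in mRNA (median log2 difference -0.0056). Of 72 whose start was higher in that pair, 0 were higher and 3 lower. One of these was CDKN1B, with mRNA of 83.3, 86.3 and 80.9 CPM in shScr and 51.0, 47.4 and 49.6 CPM in shRNF8 (log2 fold change -0.76, edgeR adjusted p = 0.00259), while its S9.6 region was higher. Without shScr replicate 1 the number of called genes with a region at their start was 1128 in place of 97, and without any other RNA library it was 11 to 33.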

How the data were processed

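S9.6 DRIP-seq was deposited as 1 narrowPeak list per library and RNA-seq as 1 count table. Per the submitters' processing notes the tools included Trim Galore 0.6.6, Bowtie2 2.2.6, STAR 2.7.9a, SAMtools 1.14, Picard 2.10.9, MACS2 2.2.7.1, deepTools 3.5.1, Subread 2.0.1 and featureCounts. The deposited fold is the ratio of S9.6 pileup to local background at the summit, each with 1 added, and was not normalised between libraries. The −log10 p and −log10 q values deposited for each peak were used for depth matching (−log10 p of at least 4 after scaling) and a stricter peak list (−log10 q of at least 5). The authors' RNA counts are whole reads per gene, 18121181 to 20006954 per library. The number of reads behind the peak lists is not given in the sources used here, so fragments per kb were estimated from the background values. The whole-number pileup was recovered from fold and p for all peaks of the 6 libraries (tolerance 0.001).

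Peaks on chromosomes 1 to 22 and X were merged where they shared at least 1 bp. A summit counted as a gene start within 1000 bp of one, otherwise as a gene end if it lay from 1000 bp upstream to 5000 bp downstream of one, and otherwise as exonic, intronic or intergenic, with gene models of the deposited count table (24980 genes with 1 locus). Of these, 22716 overlapped the RefSeq span of the same symbol. Library values were compared by two-sided exact permutation tests. Regions called in all 6 libraries were compared with limma 3.58.1 (trend and robust) on median-centred log2 fold, and mRNA with edgeR 4.0.16 (TMM, quasi-likelihood), with Benjamini-Hochberg adjustment over all features and a threshold of 0.05. The regions called in all libraries leave out places where one group lost all signal. Scripts were tested on simulated data. R 4.3.3, DESeq2 1.42.0, Python 3.11.15, SciPy 1.17.1 and pandas 2.3.3 were used.

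Named regions were the 5 with the highest mean fold, the 10 largest differences that passed in each direction (filled by p where fewer passed), the 5 largest in each direction for the pairs, and the members of the gene lists. Passing regions outside these, and all gene-body examples, were named after their values were seen. Sequence at summits, which the plan named, was not used here because no genome of the files' build was at hand, and RefSeq promoters took its place. The members, lists and tests were chosen with earlier results of these data known. Alternatives were other merging, peak thresholds, depth matching, scaling, height measures, filters and tools, and leaving out each library. One gene among the gene-body examples is not reported here.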

Additional observations from a re-analysis of the deposited data

Results flagged for a closer look

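The shRNF8 pairs lay on opposite sides of the shScr mean in several library measures, of which 5 are given here, and these differences were not tested beyond the exact test that cannot pass with 2 libraries each. Replicates 3 and 4 minus replicates 1 and 2 came to 16524 peaks per library, 44.3 Mb of covered genome, -4.73 percentage points in summits at gene starts, 1.96 points in intergenic summits and -5.57 in the median pileup over genome background. After depth matching the peak numbers of the pairs overlapped (32337 and 32107 peaks in replicates 1 and 2, 35038 and 28512 in replicates 3 and 4). Both pairs then lay below shScr (41471 and 37409). The order of coverage was kept, with the width of each kept peak left as deposited. By limma the pairs differed in 500 regions. Estimated depth and estimated control DNA both differed between the pairs, so effects of these and of the cells cannot be told apart.

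Single libraries stood apart from the other 3 of shRNF8 at 2 of the 89 groups looked at, where the gap to the nearest library was compared with the range and chance alone marks about 1 in 20 groups. At CCDC85B the gap of the log2 fold was 0.83 of the range, with replicate 1 at a fold of 52.6 and the others at 30.8 to 33.7. At AKIRIN1 the gap was 0.912 of the range.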

How the results depend on the processing

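The differences between all shRNF8 and all shScr libraries in library measures turned on the pair. With shRNF8 replicates 1 and 2 only, and likewise with the replicate block, which uses only those, the difference in covered genome was -8.52 Mb in place of 13.6 Mb, in median fold 0.177 in place of -0.222, in summits at gene starts 2.198 points in place of -0.167, in introns -0.463 in place of 3.93 and in intergenic summits -0.957 in place of 0.0228. Gene starts came to 0.0602 points with depth matching, and intergenic summits to -0.537 with gene ends taken to 2000 bp. The difference in peaks was -2476, and 5786 with replicates 3 and 4 only. Leaving out 1 library in turn gave -7784 to 2834 peaks, 15 to 92 bp in median width, 5.50 to 21.9 Mb, -0.426 to -0.0522 in median fold, -1.16 to 0.714 points at gene starts, -2.78 to -1.40 at gene ends, 2.34 to 5.67 in introns and -0.561 to 0.607 in intergenic summits.

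The 23 regions of the all-library comparison became 66 with quantile scaling, 98 when a region needed only 1 shScr and 2 shRNF8 libraries, 15 with the mean fold, 467 with the replicate block, 0 with pileup over genome background (1275 at an unadjusted p under 0.05) and 0 to 51 without 1 library. Without centring, calls were 222 for replicates 1 and 2 in place of 443, 506 for replicates 3 and 4 in place of 809 and 292 between the pairs in place of 500. With pileup over genome background they were 1844 for replicates 3 and 4 and 1665 between the pairs. Without 1 library they ran from 8 to 479, 121 to 959 and 60 to 513. EIF4A1 changed sign with the mean fold (0.70), with the replicate block (0.0386) and between -0.47 and 0.18 without 1 library, the latter without shScr replicate 1, CCDC85B with the mean fold (0.16), and the intergenic region at 34588005 on chromosome 16 between the pairs with pileup over genome background (0.76). Genes with a region at their start and changed mRNA numbered 97, and 260 with DESeq2, 194 with no filter, 142 with the replicate block and 11 to 1128 without 1 library. In these last fits a group left with 1 library was assumed to vary like the others. The cause of these shifts was not tested.

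Libraries with the same replicate number did not deviate together (correlation -0.0335 for DRIP and -0.0936, 0.142 and -0.32 for RNA). With so few libraries this cannot decide whether the same number means a shared origin, which the labels do not give. Pileup over genome background, and depth matching for the pairs, were chosen after seeing the data.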

Other observations

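Chromosome 15 held 1.63% and 1.60% of the covered length in shScr, 1.48% and 1.25% in shRNF8 replicates 1 and 2, and 2.70% and 2.65% in replicates 3 and 4. Its share in replicates 3 and 4 was 1.66 times that in shScr, the largest ratio. On the other chromosomes this ratio ran from 0.772 (chromosome 5) to 1.175 (chromosome 9). Some regions differed between the shRNF8 pairs with shScr between them. IGFN1, a muscle protein gene, had folds of 11.6 and 10.5 in shScr over an exonic region, 29.2 and 29.03 in replicates 1 and 2, and 5.69 and 6.38 in replicates 3 and 4 (log2 difference between the pairs -2.30, limma adjusted p = 3.89e-06). RCN3, a calcium-binding protein of the secretory pathway, had folds of 11.7 and 11.4, 20.6 and 14.4, and 3.16 and 3.51 at its end (-2.40, limma adjusted p = 3.72e-06).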
